A study of Astyanax mexicanus with 20 samples.

Results

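Skeletal muscle of the cave form of *Astyanax mexicanus* was compared with that of the surface form 7 days post injury (dpi). The comparison took every library of that stage, 4 of the 20 libraries of the study: 2 from troglobitic cavefish and 2 from river-dwelling surface fish, all injected with cardiotoxin, which comes from snake venom and lyses muscle fibres. The whole study held saline controls (injected with PBS, no day stated) and cardiotoxin-injured muscle at 1, 7 and 14 dpi from both forms, with 3 libraries per form in controls and at 1 dpi and 2 per form later. Every library, controls included, carries a label of free-running darkness, and the series text describes sampling around a 24-hour cycle with 3 fish at a time, which the 2 libraries per form at 7 dpi do not match; the hour of collection, the age and sex of the fish and the cave of origin were not stated in the labels used here. Whether the libraries of a form are different fish is not stated, so p-values measure only the spread between libraries, which may be technical. With 2 libraries against 2, an exact permutation test cannot give a two-sided p below 0.333, and genes were therefore tested in a limma model fitted across all genes and all 20 libraries.

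Cardiotoxin destroys fibres but leaves resident muscle stem cells able to proliferate, differentiate and fuse into new fibres, while phagocytes clear debris and fibroblasts lay down matrix. About a week after such an injury, new fibres are usually forming and inflammation is receding. The cave form of this species has reduced eyes and pigment, lives where food is scarce, and is known for altered metabolism, fat storage and immune features, so differences between forms can exist before any injury. For that reason many 7 dpi values are given beside the difference between forms in saline controls. Where no control value is printed, the difference may also be present in controls.

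Levels are scaled TPM (transcripts per 1000000, corrected between libraries by a median-of-ratios factor), and differences are cave minus surface on the log2(scaled TPM + 1) scale, which understates the change of low genes. At 7 dpi a library had from 13492 to 14288 genes with 1 TPM or above, and their scaling factors lay between 0.973 and 1.05. Pearson correlations across genes were 0.962 between the surface libraries, 0.976 between the cave libraries and 0.923 to 0.933 between forms. The libraries were muscle by their markers: summed markers of skeletal muscle (9 of 10 found) reached 154407 and 145299 scaled TPM in surface fish and 156835 and 163520 in cave fish, against at most 1.53 for hepatocyte markers and 0 for both eye markers found. In bulk tissue, fewer cells of a type and less RNA per cell cannot be told apart.

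The forms differed at 7 dpi in 770 of 16884 genes tested (4.56%; limma adjusted p under 0.05). Of these, 431 were higher in cave fish (2.55%) and 339 lower (2.01%). All 770 had both cave libraries on 1 side of both surface libraries, but so did 8730 of all genes tested (51.7%). Both cave libraries were above both surface libraries in 26.9% of all genes tested and below them in 24.8%, and those shares are the background for counts of groups that do not overlap in 1 direction. The median log2 difference was 1.38 over the genes called higher and -1.55 over those called lower, and 637 of the 770 exceeded 1 in size. A share of 52.5% of the called genes had a symbol, against 79.1% of all genes kept. Many were at low levels in the form where they were lower: 105 of the 770 were listed at 0 in both of its 7 dpi libraries, and 250 (32.5%) stayed under 1 TPM in all 10 of its libraries. These 250 passed the filter only through the form where they were higher, so their calls are no independent support. Groups near 0 also add little to the spread that the model pools. The share of such genes over all genes tested was not computed. All 250 are counted in the 770. The count rested on single libraries: it was 251 without cave replicate 1, 337 without cave replicate 2, 339 without surface replicate 2 and 500 without surface replicate 1.

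Most of these differences were also present in muscle injected with saline. Of the 770 genes, 718 (93.2%) had a control difference of the same sign, and 487 (63.2% of the 7 dpi calls, and 33.0% of the 1475 genes called in controls) were also called there in the same direction. The 770 include the 250 genes that the filter kept only through the form where they were higher. Of all genes tested, 8.74% were called in controls, 4.58% higher and 4.16% lower in cave fish. The shares at the other injured stages were alike in size: 484 genes were also called the same way at 1 dpi, where 11.6% of genes were called, and 470 at 14 dpi, where 12.2% were. A set of 322 genes (41.8%) was called in the same direction at all 4 stages, and 137 (17.8%) were called at 7 dpi alone, which does not show that their difference was larger then. The genes called higher at 7 dpi had a median difference of 1.01 in controls, and those called lower had one of -1.06. These genes were picked at 7 dpi, so their medians at that stage carry the selection. Medians at the other stages are not wholly free of it, because the filter and the pooled spread used libraries of every stage.

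**Figure D1:**
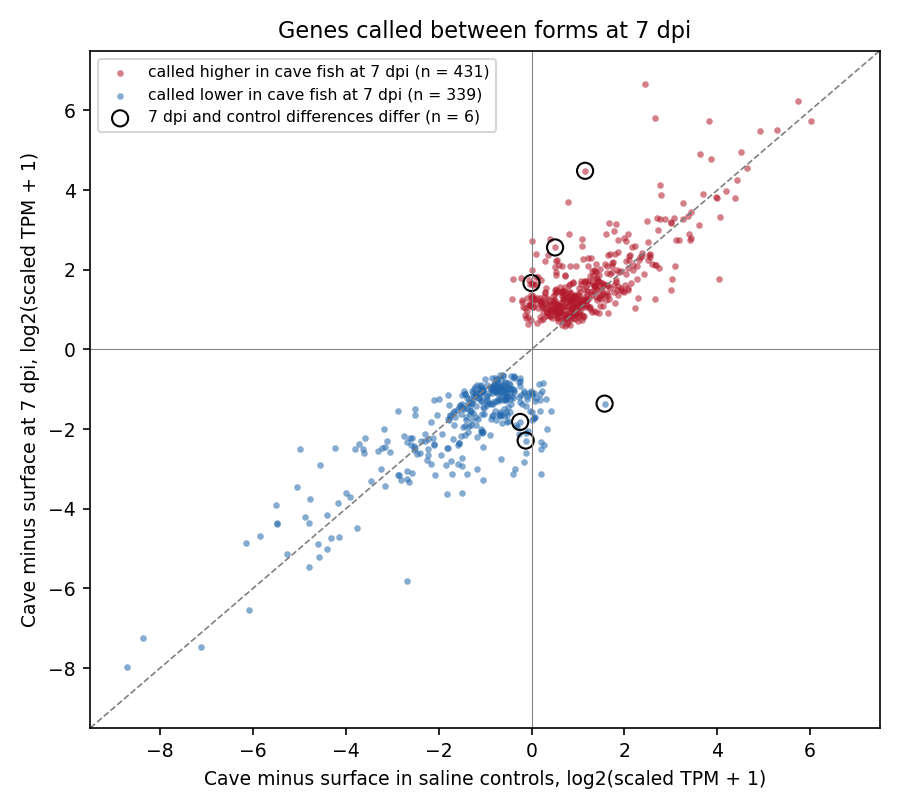
Each point is 1 of the 770 genes called between forms at 7 dpi, with its cave minus surface difference in saline controls on the horizontal axis and at 7 dpi on the vertical axis, both on the log2(scaled TPM + 1) scale; red genes were higher in cave fish, blue genes lower. Most points lie in the lower left and upper right parts, where the sign is shared (718 of 770), and circles mark the 6 called genes whose 7 dpi difference departed from the control difference.

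The largest named difference in favour of the cave form was in *pdca*, which encodes a phosducin, a binding protein of G protein subunits best known from photoreceptors. It stood at 16.6 and 10.2 scaled TPM in cave fish and was listed at 0 in both surface libraries (log2 difference 3.81, SE 0.293, limma adjusted p = 5.8e-07), with 3.99 in controls. *gyg2*, a glycogenin that primes glycogen synthesis, was at 12.72 and 13.2 scaled TPM in cave fish and listed at 0 in both surface libraries (log2 difference 3.80, SE 0.711, adjusted p = 0.00527), and its control difference was 4.38. For both genes the control difference was at least as large as that at 7 dpi.

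Another group of genes was higher in cave fish at 7 dpi without a called difference in controls. *cfp*, which encodes properdin, a stabiliser of the alternative complement pathway, stood at 19.6 and 7.59 scaled TPM in cave fish and at 0.0287 and 0.0292 in surface fish (log2 difference 3.69, SE 0.555, adjusted p = 0.000899); in controls the difference was 0.78 (adjusted p = 0.353). *lrata*, a lecithin retinol acyltransferase that stores retinol as esters, was at 7.57 and 5.64 scaled TPM against 0 and 0.234 (log2 difference 2.76, SE 0.511, adjusted p = 0.00485), with 0.40 in controls. *mmp13b*, a collagenase, was at 17.0 and 29.5 scaled TPM against 5.71 and 1.24 (log2 difference 2.60, SE 0.63, adjusted p = 0.0268), with 1.08 in controls. At the other injured stages, *cfp* was also called higher at 1 dpi (2.84) and 14 dpi (3.24), and *lrata* (1.93) and *mmp13b* (3.55) at 14 dpi. The departure of the 7 dpi difference from the control difference was tested for each and was not called: adjusted p was 0.445 for *cfp*, 0.582 for *lrata* and 1 for *mmp13b*. The *mmp13b* call was kept in 7 of 12 processing settings.

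The remaining genes of the 10 largest in this direction were also called in controls. *gpx3*, a secreted glutathione peroxidase, stood at 18.7 and 16.3 scaled TPM in cave fish and at 2.09 and 0.985 in surface fish (log2 difference 2.90, SE 0.256, adjusted p = 3.25e-06), with 1.60 in controls. *cflarb*, a relative of the caspase-8 inhibitor c-FLIP, was at 11.04 and 15.8 scaled TPM against 0.583 and 0.273 (log2 difference 3.32), and *cdcp1a*, a membrane glycoprotein, at 15.9 and 11.3 against 0.401 and 0.234 (3.45). *cngb3.2*, a cyclic-nucleotide-gated channel subunit known from cones, had a log2 difference of 2.46, and *fam149a* one of 2.42. That the forms did not overlap at 7 dpi was a condition for naming these genes, so it is no result about them.

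In the other direction, the uncharacterised *si:dkey-85k15.4* had the largest difference, with 0.146 and 0.144 scaled TPM in cave fish against 211 and 385 in surface fish (log2 difference -7.96, SE 0.592, limma adjusted p = 3.88e-07; -8.71 in controls). *tac3b*, a tachykinin precursor, was at 0 and 0.247 scaled TPM in cave fish and at 46.9 and 21.9 in surface fish (log2 difference -4.89, with -4.60 in controls). Both genes were close to undetected in cave muscle. *cry1b*, a cryptochrome that represses the circadian clock, was at 1.496 and 2.31 scaled TPM against 16.9 and 15.6 (log2 difference -2.58, SE 0.502, adjusted p = 0.00704; -3.05 in controls). *ognb*, an osteoglycin, which is a small proteoglycan of the matrix, stood at 13.1 and 11.8 against 68.3 and 82.1 (log2 difference -2.50; -2.22 in controls).

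A protein of the sarcomere was among the abundant genes that were lower. *myoz3a*, a myozenin, a calcineurin-binding protein of the Z-disc, stood at 82.9 and 82.0 scaled TPM in cave fish and at 529 and 704 in surface fish (log2 difference -2.87, SE 0.737, adjusted p = 0.0359), with -2.16 in controls. *ARRDC4*, an arrestin-domain protein, was at 7.10 and 7.96 scaled TPM against 43.1 and 95.03 (log2 difference -2.93, SE 0.773, adjusted p = 0.0413), with -1.50 in controls. Both calls were fragile, holding in 5 and 4 of 12 processing settings. *tpmt.1*, a thiopurine methyltransferase, was at 0.253 and 0.257 against 7.21 and 6.35 (log2 difference -2.63). The last 3 of the 10 largest were *si:ch211-212k18.15* at -2.76, *si:dkey-85n7.8* at -2.74 and *l3mbtl1a*, a chromatin reader of methylated histones, at -2.55.

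**Figure D2:**
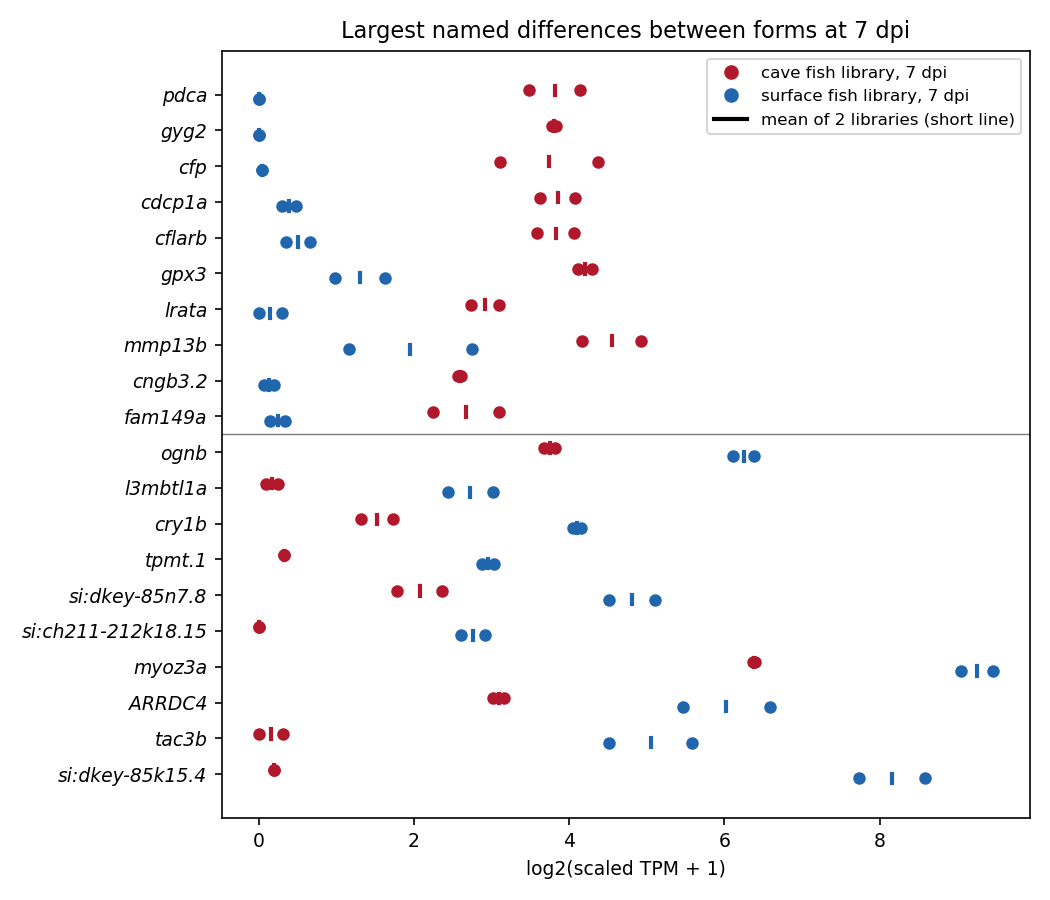
For the 10 largest named differences in each direction, each point is a 7 dpi library (red cave fish, blue surface fish), the short lines are means of the 2 libraries of a form, and the horizontal axis is log2(scaled TPM + 1). The forms are apart for every gene because no overlap was a condition of the choice. *pdca* and *gyg2* are at 0 in surface fish and *si:ch211-212k18.15* is at 0 in cave fish.

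Whether the forms differed at 7 dpi in a way not seen elsewhere was asked with 2 contrasts of differences. Against the control difference, 8 genes were called (0.0474% of 16884; 808 at an unadjusted p under 0.05), 5 of them higher (0.0296%) and 3 lower (0.0178%). Against the mean difference of the other 3 stages 10 were called (0.0592%; 928 unadjusted), 4 higher (0.0237%) and 6 lower (0.0355%). The contrasts share the 7 dpi and control libraries. Together they held 11 identifiers, of which 3 had a symbol. At a pseudocount of 0.1 the counts were 2 and 0.

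*myl4* is known in mammals as the essential myosin light chain of the atrium and of embryonic skeletal muscle. It was listed at 0 in all 6 control and all 6 1 dpi libraries. At 7 dpi it stood at 5.27 and 5.38 scaled TPM in cave fish and at 0.621 and 1.44 in surface fish, so both forms had it and the cave libraries were the higher (log2 difference 1.67, SE 0.181, limma adjusted p = 3.24e-05). Its 7 dpi difference departed from that of controls by 1.67 (limma adjusted p = 0.00852). The model pools residual spread over all groups, and groups listed at 0 throughout add none. These p-values therefore do not measure the spread at 7 dpi alone. Only 7 dpi libraries exceeded 1 scaled TPM, so the filter kept *myl4* because of that stage. By 14 dpi it was at 0.361 and 0.213 scaled TPM in cave fish and listed at 0 in both surface libraries.

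*gch2* encodes a GTP cyclohydrolase that, in zebrafish, serves pteridine synthesis in pigment cells. It was listed at 0 in both cave libraries at 7 dpi and stood at 2.76 and 2.31 scaled TPM in surface fish (log2 difference -1.82, SE 0.165, adjusted p = 4.41e-06). In surface controls it was at most 0.222 scaled TPM. The 7 dpi difference was -1.57 away from that of controls (limma adjusted p = 0.00852). Only the 2 surface libraries at 7 dpi reached 1 TPM for *gch2*, so it passed the filter through the group where it was high. These p-values are therefore no support for a difference particular to 7 dpi. The limit on pooled spread given for *myl4* holds here too. *pmela*, a melanosome matrix protein, was at 0.0389 and 0.0617 scaled TPM in cave fish and at 1.72 and 1.07 in surface fish (log2 difference -1.18, adjusted p = 0.0181), with -0.96 in controls. These were the 2 genes called, both lower, among 35 tested of a skin and epithelium list (5.71%, against 4.56% of all genes), whose median difference was 0.09. Summed keratinocyte markers were 148 and 151 scaled TPM in cave fish and 82.7 and 147 in surface fish.

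The other departures were in genes with no symbol, or a small nucleolar RNA. The 4 identifiers without a symbol given here, and *SNORD15*, were chosen after their values were seen. ENSAMXG00000033876 was at 28.4 and 21.1 scaled TPM in cave fish at 7 dpi and at 0.296 and 0 in surface fish, while cave controls had 0.813 to 1.77 (departure 3.33, adjusted p = 0.000583). Its surface libraries were listed at 0 at all other stages, so the limit on pooled spread given for *myl4* holds here too. No surface library reached 1 TPM, so the gene passed the filter only through the cave form, where it was high. Its p-value is therefore no independent support. ENSAMXG00000007037 showed the reverse of a growing gap: cave controls had 1.69 to 6.53 scaled TPM against 485 to 1673 in surface controls, but at 7 dpi cave fish had 340 and 752 against 850 and 1220 in surface fish. The forms were no longer called apart in that gene (log2 difference -1.01, adjusted p = 0.42), and the departure was 6.60 (adjusted p = 0.00216). At 14 dpi its cave level was 144 and 443 scaled TPM, against 2422 and 2426 in surface fish. The forms were called apart at that stage (log2 difference -3.26, limma adjusted p = 0.00376).

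Among the lower genes, ENSAMXG00000006950 was at 0.525 and 0.534 scaled TPM in cave fish and at 4.92 and 8.40 in surface fish (departure -2.16, adjusted p = 0.0408). Elsewhere only surface replicate 1 at 1 dpi exceeded 1 scaled TPM (1.08). So ENSAMXG00000006950 passed the filter only because of the group where it was high. ENSAMXG00000039013 was at 0.243 and 0.257 against 5.90 and 13.6; it departed from the mean of the other stages by -3.42 (adjusted p = 0.00554), but not by the test against controls (adjusted p = 0.115). *SNORD15* was listed at 0 in both cave libraries at 7 dpi and stood at 1.62 and 1.52 scaled TPM in surface fish. In controls the order was the opposite, with 1.83 to 2.19 in cave fish and 0 in all 3 surface libraries (departure -2.93, adjusted p = 0.00132). Its symbol is borne by more than 1 identifier, and the libraries were selected for polyadenylated RNA. *SNORD15* was listed at 0 throughout several groups, so the limit on pooled spread given for *myl4* holds here too. In no library did it exceed 2.19 scaled TPM.

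**Figure D3:**
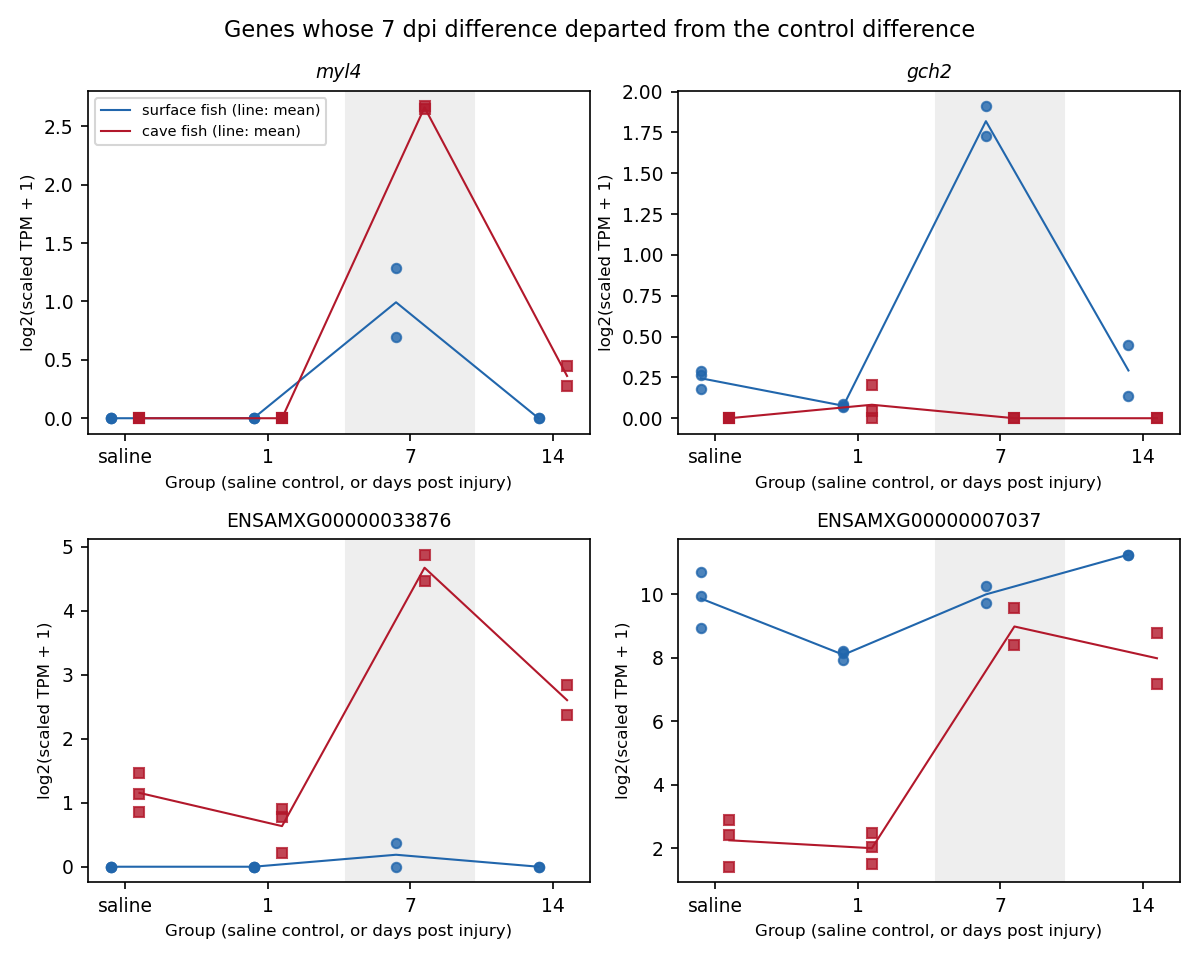
Levels of *myl4*, *gch2* and 2 genes without a symbol in every library of the study, as log2(scaled TPM + 1), by group (saline control, then 1, 7 and 14 dpi); circles are surface and squares cave libraries, lines join group means and the shaded band marks 7 dpi. *myl4* is above 0 in both forms at 7 dpi, *gch2* exceeds 1 on this scale in the surface libraries of that stage and in no other library, and in ENSAMXG00000007037 the cave libraries approach the surface ones at 7 dpi.

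Genes of muscle formation were tested as a list of 40 myogenic regulators and stem cell genes. Its median difference was 0.27, against 0.01 over all genes tested and -0.05 for the list in controls. A total of 22 members had both cave libraries above both surface libraries (55%, against 26.9% of all genes) and 7 had both below. The test called 2 members, both higher in cave fish (5%, against 4.56% of all genes called in either direction). *met*, the receptor of hepatocyte growth factor, was at 10.1 and 10.1 scaled TPM in cave fish and at 3.95 and 2.87 in surface fish (log2 difference 1.35, SE 0.265, limma adjusted p = 0.0077), with 0.03 in controls. *jam3b*, an adhesion molecule needed in zebrafish for the fusion of muscle precursors, was at 6.28 and 5.05 scaled TPM against 2.30 and 1.67 (log2 difference 1.16, adjusted p = 0.0139), with 0.49 in controls. Neither gene's 7 dpi difference was called different from its control difference (adjusted p = 0.449 and 1). The third member by adjusted p, *cdh15*, a cadherin of muscle precursors, was at 28.1 and 30.0 scaled TPM against 18.7 and 9.29 (log2 difference 1.08, adjusted p = 0.12).

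The central regulators of the programme were not called, and their intervals were wide. *myog*, the factor of terminal differentiation, stood at 100.4 and 103 scaled TPM in cave fish and at 63.3 and 47.0 in surface fish (log2 difference 0.89, 95% interval -0.86 to 2.63). *myod1*, which commits cells to the muscle lineage, was at 71.5 and 59.8 scaled TPM in cave fish and at 116 and 132 in surface fish (log2 difference -0.91, interval -2.103 to 0.29). So the libraries of the forms did not overlap for either gene, in opposite directions, with neither past the test. *mymk*, the membrane protein myomaker needed for fusion, was at 7.19 and 4.46 scaled TPM against 4.90 and 3.23 and overlapped between forms (log2 difference 0.42, interval -0.06 to 0.90). *myf5* had a difference of 0.36 (interval -0.29 to 1.02) and *pax7b*, a marker of muscle stem cells, one of 0.42 (interval -0.19 to 1.03). These intervals include 0 and also differences over 0.5, so they do not show that the forms were alike.

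Lists of sarcomere genes of new and of fast fibres held 3 calls. Of 28 genes of newly formed and developmental fibres, *myl4* was called (3.57%, against 4.56% of all genes) and the median was 0.00. *actc1a*, the cardiac-type actin of young fibres, was at 546 and 569 scaled TPM in cave fish and at 516 and 487 in surface fish (log2 difference 0.15, interval -2.56 to 2.87). *ankrd1b*, a stretch-responsive ankyrin repeat gene, had a difference of 0.59 (interval -0.80 to 1.97), and *tnni2b.1*, a fast troponin I, one of 0.41 (interval -1.23 to 2.05). Among 44 genes of mature fast muscle contraction the median was 0.07. The test called 2 (4.55%, against 4.56% of all genes), both higher in cave fish. *cacna1sb*, the voltage-sensing calcium channel subunit of excitation-contraction coupling, was at 492 and 415 scaled TPM against 151 and 123 (log2 difference 1.72, SE 0.268, adjusted p = 0.00125), with 1.07 in controls, and it was called in all 12 settings. A tropomyosin gene named *TPM1* was at 3872 and 2103 against 718 and 979 (log2 difference 1.77, adjusted p = 0.0361), held in 4 of 12 settings, and had a control difference of 4.03. *ckma*, the muscle creatine kinase, overlapped between forms (log2 difference 0.07, interval -0.69 to 0.83).

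The slow muscle list was decided by 1 library. Its 16 genes had a median of -0.66 and 14 were negative, but limma called 0 of them. At an unadjusted p under 0.05, 2 were lower and 0 higher, against 1482 lower and 1526 higher of all 16884 genes tested. Mean log2 levels over the list were 5.28 and 4.98 in surface fish, 3.87 in cave replicate 1 and 5.41 in cave replicate 2. Without cave replicate 1 the median was 0.14, and without cave replicate 2 it was -1.30. For 20 genes of the neuromuscular junction the median was 0.15 and limma called 0. Unadjusted, 5 were higher and 0 lower, against 1526 higher and 1482 lower of all 16884 genes. Both cave libraries were above both surface libraries in 10 of the list (50%, against 26.9% of all genes).

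By the share of members with groups that did not overlap, mitochondrial respiration stood furthest from the background of the 24 lists. Of 109 genes of the respiratory chain, the citrate cycle and their carriers, 99 had lower mean levels in cave fish at 7 dpi, and 92 (84.4%) had both cave libraries below both surface libraries, against 24.8% of all genes tested. The median difference was -0.56. Mean log2 levels over the list were 6.31 and 6.33 in cave fish and 6.71 and 6.94 in surface fish, so the groups did not overlap. Few members passed the test alone. At an unadjusted limma p under 0.05, 41 were lower and 4 higher, against 1482 lower and 1526 higher of all 16884 genes tested. Only 2 members passed adjustment over all genes (1.83%, against 4.56% of all genes called in either direction). The list median stayed between -0.70 and -0.42 in all 12 processing settings, leaving out each 7 dpi library included.

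Lower values were found in every complex. Both cave libraries were below both surface libraries for 33 of 37 subunits and factors of complex I, the NADH dehydrogenase; 3 of 4 of complex II; all 11 of complex III, the cytochrome bc1 complex; 12 of 17 of complex IV, the cytochrome c oxidase; 13 of 14 of complex V, the ATP synthase; and 11 of 15 of the citrate cycle. The share over all genes tested was 24.8%. Members of a set were measured in the same 4 libraries and are not independent. Medians ran from -0.82 for complex III to -0.45 for complex IV. As examples picked after the values were seen, *uqcrc1*, a core subunit of complex III, was at 160 and 174 scaled TPM in cave fish and at 271 and 420 in surface fish (log2 difference -1.01, adjusted p = 0.127). *ndufs1* of complex I was at 70.17 and 72.9 against 106 and 138, *atp5f1b* of complex V at 366 and 397 against 534 and 655, and *cs*, citrate synthase, at 69.5 and 66.8 against 103 and 146. None of these passed the test alone.

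The 2 members called were both lower. *cox7a2l*, which helps assemble respiratory supercomplexes, was at 0.767 and 1.01 scaled TPM in cave fish and at 7.47 and 10.7 in surface fish (log2 difference -2.40, SE 0.259, limma adjusted p = 3.01e-05), and its control difference was of like size at -2.59. A more abundant identifier of the same name, *COX7A2L*, was not called. It was at 162 and 105 scaled TPM in cave fish and at 212 and 325 in surface fish (log2 difference -1.01, adjusted p = 0.265). *cycsb*, a cytochrome c, was at 33.5 and 50.8 scaled TPM against 104 and 165 (log2 difference -1.65, adjusted p = 0.0372), with -0.83 in controls, and held in 5 of 12 settings. Outside the list, 3 genes tied to complex IV were named after their values were seen. *coa6*, an assembly factor, was at 9.07 and 9.61 scaled TPM against 36.2 and 52.2 (log2 difference -2.10, adjusted p = 0.000642), *coa7* had a difference of -2.17 (adjusted p = 0.0168), and *cmc2* was at 36.8 and 27.1 against 90.5 and 139 (-1.80, adjusted p = 0.0239). Their control differences were -1.06 for *coa6*, -1.51 for *coa7* and -0.51 for *cmc2*.

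Members against the trend included isoforms of complex IV. The complex IV isoforms given here were picked after the values were seen. *cox8b* was at 31.2 and 47.0 scaled TPM in cave fish and at 6.26 and 2.096 in surface fish (log2 difference 3.05, adjusted p = 0.0753), and *cox4i1l* at 13.2 and 14.3 against 3.38 and 4.44 (1.59, adjusted p = 0.139). Their widely used relatives went the other way in value: *cox4i1* was at 242 and 268 against 292 and 368. The mitochondrial chaperones *hspd1*, *hspe1* and *hspa9* had differences of -1.01, -1.09 and -0.98 with adjusted p of 0.052, 0.0624 and 0.0697. They led a list of 63 heat shock and folding genes with a median of -0.05, of which limma called 0. Unadjusted, 7 of the 63 were lower and 3 higher, against 1482 lower and 1526 higher of all 16884 genes.

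Across stages, the respiration list had medians of -0.83 at 1 dpi, -0.56 at 7 dpi and -1.11 at 14 dpi. In controls it was -0.07, and 0.17 without scaling of the TPM values, where the median of all genes tested was 0.16. Surface controls spread from 6.41 to 7.44 in mean log2 level and cave controls from 6.84 to 6.90, so the forms overlapped there. The 7 dpi difference minus the control difference had a median of -0.47 over the list. Of 109 members 102 were negative, against 8232 of all 16884 genes, but limma called 0 members in that contrast. Unadjusted, 3 were lower and 0 higher, against 355 lower and 453 higher of all 16884 genes. Against the mean of the other 3 stages the median was 0.10 and 28 of 109 were negative, against 9192 of all 16884 genes. A lower level at 7 dpi in particular was therefore not shown. The part of the slow muscle genes, which differed between the cave libraries as given above, and of the muscle marker sums in the respiration result was not tested.

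**Figure D4:**
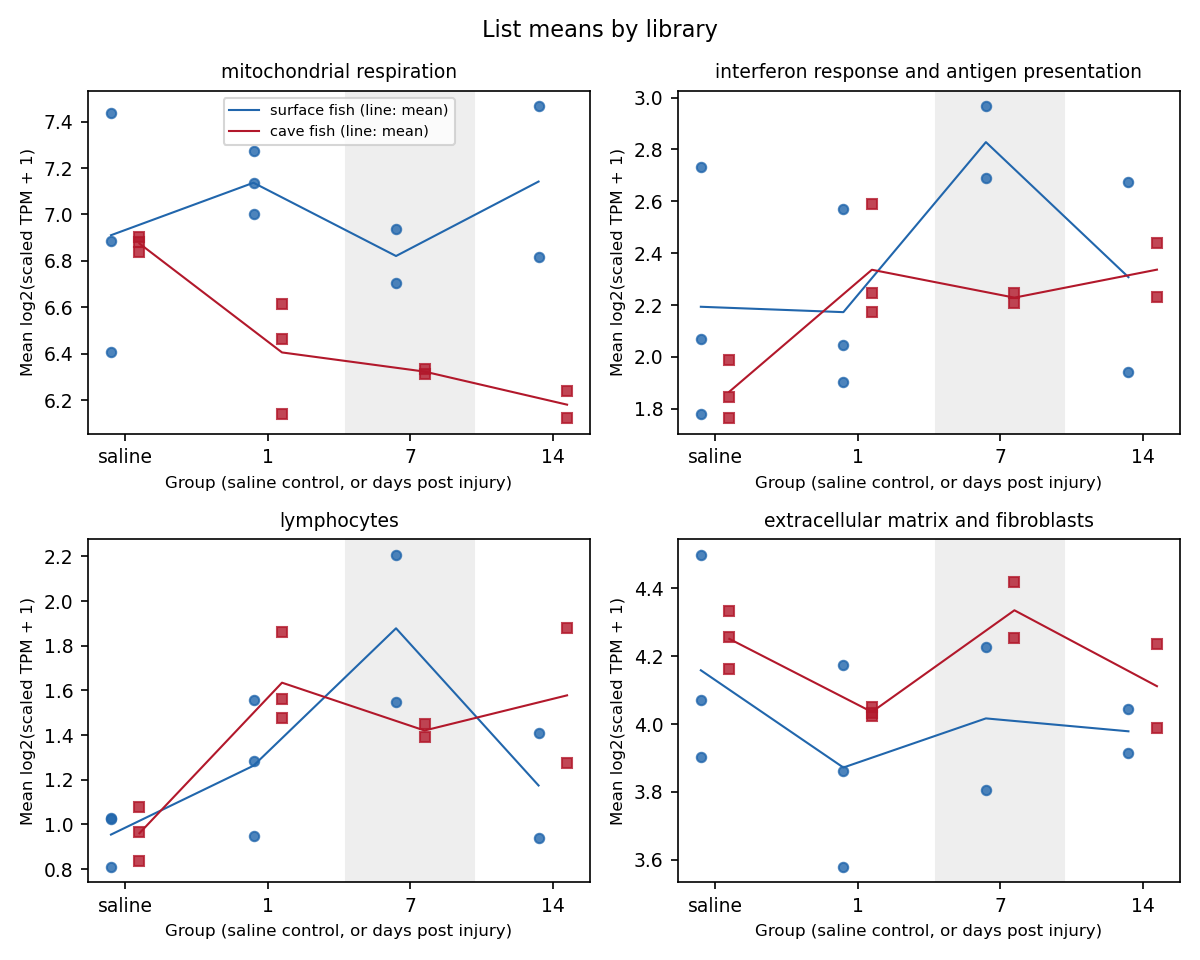
Each point is the mean log2(scaled TPM + 1) over a gene list in a library (circles surface fish, squares cave fish), by group, with lines through group means and a shaded band at 7 dpi. At 7 dpi the cave libraries lie below the surface libraries for mitochondrial respiration, interferon response and lymphocytes and above them for extracellular matrix, while controls overlap in all 4 lists.

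Fuel genes otherwise showed single differences. In a list of 70 glycolysis and glycogen genes (median 0.06), *gyg2* was the member called (1.43%, against 4.56% of all genes). *pdk2b*, a pyruvate dehydrogenase kinase, was at 20.8 and 29.4 scaled TPM in cave fish and at 125 and 370 in surface fish. It missed the threshold (log2 difference -3.07, limma adjusted p = 0.0811). Of 66 lipid genes (median -0.19), 4 were called (6.06%, against 4.56% of all genes tested). *ucp1*, an uncoupling protein of the inner mitochondrial membrane, was at 2.43 and 2.91 scaled TPM against 0.191 and 0.0877 (log2 difference 1.69, adjusted p = 0.00443), with 1.47 in controls. *acsl1a*, which activates fatty acids, was at 15.8 and 14.4 against 9.12 and 8.15 (0.74, adjusted p = 0.016), with -0.003 in controls. *pparda*, a fatty acid receptor, was lower (-0.96), and so was *slc25a20*, the carnitine-acylcarnitine carrier, named after its value was seen (-1.37). Summed adipocyte markers, nearly all *fabp11a*, were 1770 and 1619 scaled TPM in cave fish and 735 and 325 in surface fish, and their part in these results was not tested.

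Interferon and lymphocyte genes lay lower in cave fish at 7 dpi, with few calls. Of 35 interferon response and antigen presentation genes, 19 (54.3%, against 24.8% of all genes) had both cave libraries below both surface libraries and the median was -0.38. That median was -0.0939 with a filter at a mean of 5 TPM and -0.70 at a pseudocount of 0.1. *irf7*, the factor that amplifies the interferon response, was at 0.379 and 1.22 scaled TPM in cave fish and at 4.90 and 3.53 in surface fish (log2 difference -1.56, SE 0.381, limma adjusted p = 0.0273), with -0.55 in controls. It was the member called (2.86% of the list, against 4.56% of all genes), and it held in 6 of 11 settings. Just short of the call stood *helz2* (-1.61, adjusted p = 0.052), an *isg15* gene at 1.24 and 0 against 7.42 and 4.73 (-2.21, adjusted p = 0.052) and *stat1b* (-1.74, adjusted p = 0.0643). *isg15* is borne by several identifiers, whose reads could be split between them.

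Values varied among the members. *rsad2*, an antiviral enzyme, was at 0.379 and 0 scaled TPM in cave fish and at 7.89 and 4.74 in surface fish, and *ifit8* at 0.204 and 0.421 against 5.35 and 2.79; both are named after their values were seen and neither was called. The immunoproteasome genes *psmb8a* and *psmb9a* overlapped between forms (0.01 and 0.07), and *psme1*, a proteasome activator, was at 204 and 219 against 106 and 104 (1.00, adjusted p = 0.12). *cd74a*, the invariant chain of antigen presentation, was at 160 and 142 against 274 and 219 (-0.70), and *irf1b* and *irf2* had differences of -0.19 and 0.13. These members too were named after their values were seen. In controls the list median was -0.37, the same size as at 7 dpi, although the control libraries of the forms overlapped in list mean.

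Of 30 lymphocyte genes, 25 were negative, 14 (46.7%, against 24.8% of all genes) had both cave libraries below both surface libraries, and the median was -0.44. The list median was -0.01 in controls, 0.30 at 1 dpi and 0.46 at 14 dpi. *cd8b*, a coreceptor of cytotoxic T cells, was at 0.107 and 0 scaled TPM in cave fish and at 1.32 and 1.02 in surface fish (log2 difference -1.04, SE 0.217, adjusted p = 0.0111, held in 5 of 9 settings), with -0.02 in controls; its departure from controls was not called (adjusted p = 0.559). *cd8b* was the member called (3.33% of the list, against 4.56% of all genes). It passed the filter only through the surface libraries of 7 dpi, the group where it was high, so its call is no independent support. *tcf7* and *itk*, both of T cells, had differences of -1.34 and -0.93 (adjusted p = 0.153 and 0.163). In 2 members (6.67%, against 26.9% of all genes) both cave libraries were above both surface libraries. *foxp3a*, 1 of these and named after its value was seen, was at 4.22 and 3.97 scaled TPM in cave fish and at 2.82 and 1.96 in surface fish (0.60). Summed T cell markers were 5.51 and 4.91 scaled TPM in cave fish and 11.9 and 6.91 in surface fish, and B cell markers were 1.26 and 2.64 against 13.1 and 3.16. Surface replicate 1 was the highest library in both sums. With a filter at a mean of 5 TPM the list median was -0.01.

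Phagocyte lists showed little. Of 51 macrophage genes limma called 0, with a median of -0.07 that turned to 0.25 without surface replicate 1. Unadjusted, 5 were lower and 5 higher, against 1482 lower and 1526 higher of all 16884 genes. *MPEG1*, a pore-forming protein of macrophages, was at 26.6 and 24.5 scaled TPM in cave fish and at 66.3 and 43.2 in surface fish (log2 difference -1.04, interval -2.08 to 0.00), and *irf8* had a difference of 0.16 (interval -0.53 to 0.84). Summed macrophage markers were 78.2 and 71.0 scaled TPM against 121 and 81.0. *MPEG1* is 1 of these markers, so the sums are not separate from it. Of the others, *irf8* and *spi1b* overlapped between forms, and *csf1ra* was at 12.9 and 12.6 against 16.5 and 13.1. In 24 neutrophil genes (median 0.08), *cxcr1*, a receptor of interleukin-8, was the member called (4.17%, against 4.56% of all genes). It was at 3.30 and 4.05 scaled TPM in cave fish and at 0.507 and 0.263 in surface fish (log2 difference 1.76, limma adjusted p = 0.000615), with 0.21 in controls. *mpx*, the neutrophil peroxidase, overlapped (log2 difference -0.33), and summed neutrophil markers did too, at 15.3 and 13.1 against 21.5 and 14.2.

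Among 53 inflammatory cytokine and signalling genes (median -0.05), *tnfaip2b*, induced by tumour necrosis factor in mammals, was the member called (1.89%, against 4.56% of all genes). It was at 0.913 and 1.32 scaled TPM against 9.003 and 7.57 (log2 difference -2.14, limma adjusted p = 0.0258). Both identifiers named *il1b* overlapped between forms, with differences of 0.11 and 0.06. Of 26 complement and coagulation genes (median 0.22), *cfp* was higher, as above, and *c7b*, a component of the membrane attack complex, lower, at 0.457 and 0.956 scaled TPM against 6.02 and 11.04 (log2 difference -2.45, adjusted p = 0.0489). The *c7b* call held in 3 of 12 settings. The 2 calls were 7.69% of the list, against 4.56% of all genes.

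Matrix genes leaned higher in cave fish. Of 89 extracellular matrix and fibroblast genes, 70 were positive, 38 (42.7%, against 26.9% of all genes) had both cave libraries above both surface libraries, and the median was 0.30, against 0.07 in controls. *plod2*, a lysyl hydroxylase that prepares collagen for cross-linking, was at 23.3 and 23.0 scaled TPM in cave fish and at 5.83 and 2.95 in surface fish (log2 difference 2.22, SE 0.445, limma adjusted p = 0.00882), with 0.29 in controls. *vcanb*, the large proteoglycan versican, was at 33.6 and 36.0 against 16.5 and 10.4 (1.34, adjusted p = 0.0116), and *FBN1*, the microfibril protein fibrillin, named after its value was seen, was at 22.2 and 19.8 against 11.6 and 9.28 (0.95, adjusted p = 0.0463). *bgnb*, a biglycan, was lower, at 4.76 and 4.02 scaled TPM against 10.4 and 15.4 (-1.35, adjusted p = 0.0319). Control differences were 0.91 for *vcanb*, 0.61 for *FBN1* and -1.27 for *bgnb*. The 4 called members were 4.49% of the list, against 4.56% of all genes.

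The abundant structural matrix genes were not called. *col1a1a* was at 985 and 1234 scaled TPM in cave fish and at 1008 and 635 in surface fish (log2 difference 0.46), and *col1a2* had a difference of 0.17. *fn1a*, a fibronectin, was at 96.7 and 108 against 63.7 and 27.3 (log2 difference 1.27, interval 0.04 to 2.50, adjusted p = 0.259). The fibronectin *fn1b*, named after its value was seen, overlapped between forms with a difference of the other sign. It was at 82.2 and 77.6 scaled TPM in cave fish and at 207 and 63.2 in surface fish (-0.51). *mmp9*, a gelatinase, overlapped between forms (0.55). Surface replicate 2 was the low library for these genes, and without it the list median was 0.08; without surface replicate 1 it was 0.54. Summed fibroblast markers were 1921 and 2366 scaled TPM in cave fish and 2071 and 1320 in surface fish.

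Of 67 growth factor genes, 32 (47.8%, against 26.9% of all genes) had both cave libraries above both surface libraries, with a median of 0.27, and 2 were called (2.99%, against 4.56% of all genes): *met*, as above, and *igfbp5b*, a binding protein of insulin-like growth factors, at 16.1 and 13.7 scaled TPM against 5.38 and 5.74 (log2 difference 1.27, adjusted p = 0.0137), with 0.08 in controls. In 80 genes of DNA replication and mitosis limma called 0, and 0 reached an unadjusted p under 0.05 in either direction; the median was -0.14. *pcna* and *top2a*, genes of dividing cells, had differences of -0.45 (interval -1.53 to 0.64) and -0.30 (interval -1.34 to 0.75). Surface replicate 1 was the highest library for both, with *pcna* at 28.5 scaled TPM against 9.21 in surface replicate 2 and 11.2 and 12.3 in cave fish. Without surface replicate 1 the list median was 0.40.

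**Figure D5:**
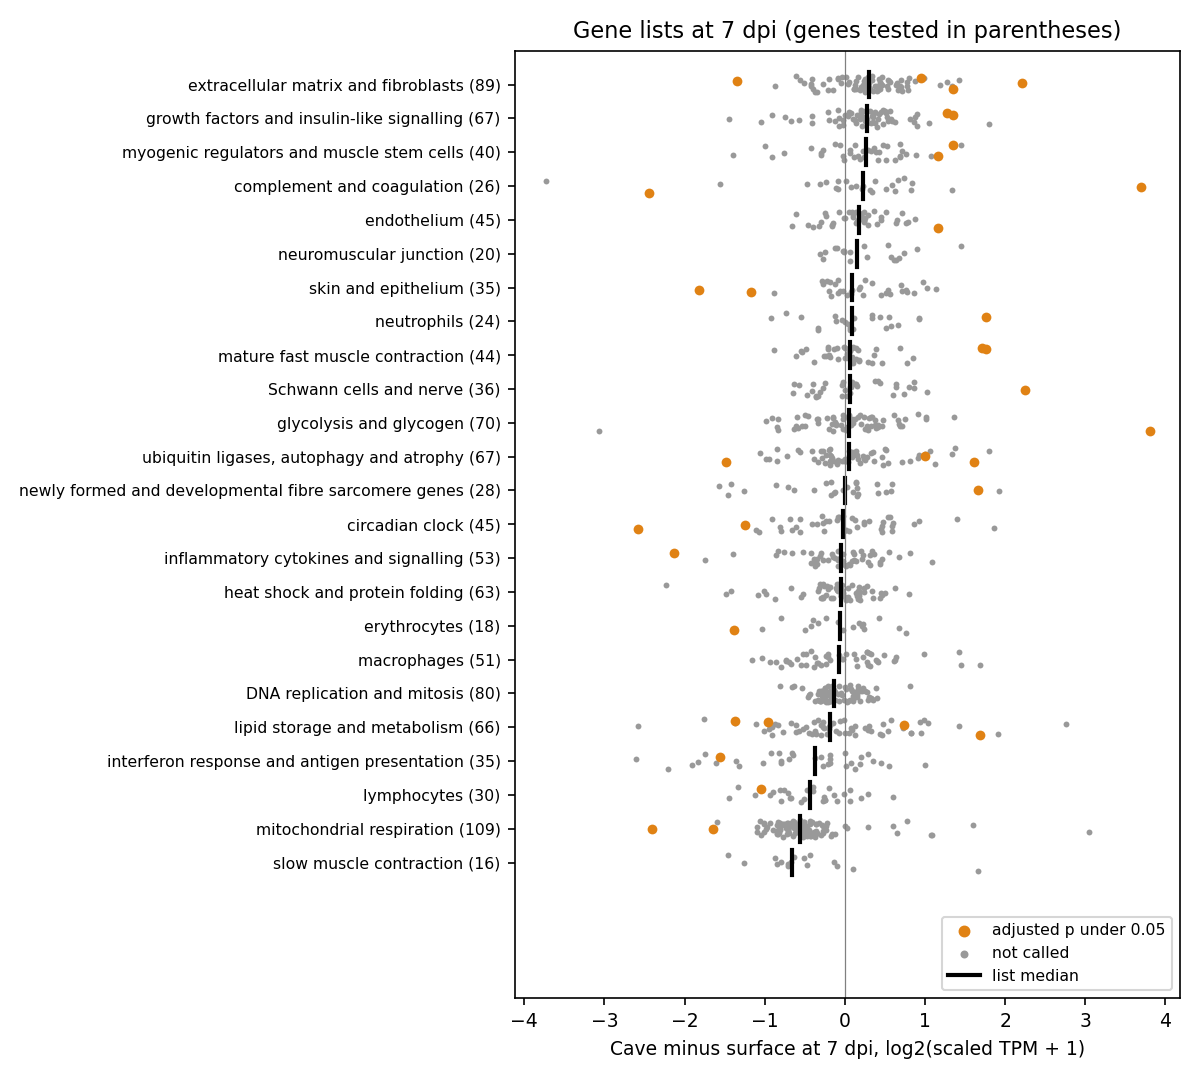
Each point is a gene of 1 of 24 lists, placed by its cave minus surface difference at 7 dpi on the log2(scaled TPM + 1) scale; orange points passed the limma threshold, grey points did not, and black bars are list medians (vertical spread within a row has no meaning). Mitochondrial respiration is a narrow cloud left of 0 with a median of -0.56, and the matrix list lies right of 0 with a median of 0.30.

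Lists of protein breakdown, clock and other cell types held few calls. The test called 3 of the ubiquitin ligase, autophagy and atrophy genes (4.48%, against 4.56% of all genes). Of 67 ubiquitin ligase, autophagy and atrophy genes (median 0.05), *nedd4a*, a ubiquitin ligase, was at 13.2 and 11.5 scaled TPM in cave fish and at 6.97 and 4.60 in surface fish (log2 difference 1.00, adjusted p = 0.0239). *klhl41a*, a kelch protein of the sarcomere, was at 44.5 and 62.8 against 19.6 and 14.1 (1.61, adjusted p = 0.0299), and *asb16*, a SOCS-box protein, at 8.25 and 5.39 against 14.0 and 30.0 (-1.49, adjusted p = 0.0438, held in 4 of 12 settings). Control differences were 0.39 for *nedd4a*, 1.78 for *klhl41a* and -1.46 for *asb16*. Of 45 clock genes (median -0.02), *cry1b* and *per3* were called (4.44%, against 4.56% of all genes), both repressors and both lower in cave fish. *per3* was at 6.80 and 8.26 scaled TPM against 19.1 and 19.1 (-1.24, adjusted p = 0.0472), with -0.47 in controls, and held in 4 of 12 settings. *per1b* and the activator *arntl1b* had differences of -0.56 and -0.28. The hour of collection was not used, so a difference in clock phase and a constant difference in level cannot be told apart.

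In 45 endothelial genes (median 0.18), *erg*, a transcription factor of vessels, was at 20.5 and 15.5 scaled TPM in cave fish and at 8.78 and 6.28 in surface fish (log2 difference 1.16, adjusted p = 0.0214), while summed endothelial markers overlapped, at 45.0 and 42.8 against 43.6 and 36.4. Of 36 Schwann cell and nerve genes (median 0.06), *nefma*, a neurofilament of axons, was at 14.3 and 11.5 scaled TPM against 2.103 and 1.73 (2.25, adjusted p = 0.046, held in 5 of 12 settings), with 2.105 in controls. Summed Schwann cell markers were 66.9 and 97.3 against 66.2 and 61.8. Of 18 erythrocyte genes (median -0.06), a *tfr1a* identifier, a transferrin receptor, was at 0.554 and 1.11 scaled TPM against 3.42 and 4.07 (-1.39, adjusted p = 0.0345, held in 4 of 11 settings), and another of the same name was not called (0.43). Summed erythrocyte markers were 31.1 and 29.8 scaled TPM in cave fish and 50.2 and 44.5 in surface fish. The part of these marker differences in the results was not tested. The shares called were 2.22% for endothelium, 2.78% for Schwann cells and nerve and 5.56% for erythrocytes, against 4.56% of all genes.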

How the data were processed

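Polyadenylated RNA of skeletal muscle was sequenced from stranded libraries, per the labels' protocols. The deposited table holds TPM values for 27420 genes, made by the authors with STAR 2.7.3a and RSEM 1.3.0, per the submitters' processing notes. The genome build and annotation were not stated there. No coordinates or sequences are therefore printed. TPM keeps no depth, so no counting interval was computed, and RSEM's division of reads between near-identical copies is uncertain. Gene names are those of the table; 0 of its identifiers were matched in a RefSeq gene table.

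Genes at 1 TPM or more in at least 2 libraries were kept (16884, of which 13363 have a symbol and 1007 share one). Scaling used a median-of-ratios factor per library from 9467 genes (0.595 to 1.92 over 20 libraries). The model, fitted to log2(scaled TPM + 1) by limma 3.58.1 under R 4.3.3, had 8 group means, 12 residual degrees of freedom, a mean-variance trend and Benjamini-Hochberg adjustment over all genes, called under 0.05. The model was tested on simulated data. Each result was recomputed with a pseudocount of 0.1, without the filter, with a mean of at least 5 TPM, with unscaled and quantile-normalized values, with only the groups compared, a replicate block, robust variance, and each library left out.

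Genes were named by rule: the 10 largest differences in each direction among called genes with a symbol of 1 identifier and no overlap, the 5 largest in each direction of each contrast of differences, up to 3 members of each list by adjusted p, and 24 fixed genes. Of these, 21 symbols were tested; *pax7a* was below the filter, and *mymx* and *mki67* were not found by name. The lists, rules and fixed genes were chosen with earlier results of these data known. Further genes were named outside these rules after their values were seen.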

Additional observations from a re-analysis of the deposited data

Results flagged for a closer look

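The difference between forms at 7 dpi differed from that in controls or from the mean of the other 3 stages in 11 identifiers, by the limma test of the difference itself. Those given in the report were *myl4* (departure from the control difference 1.67), *gch2* (-1.57), *SNORD15* (-2.93), ENSAMXG00000033876 (3.33), ENSAMXG00000007037 (6.60) and ENSAMXG00000006950 (-2.16); ENSAMXG00000039013 departed from the mean of the other 3 stages by -3.42. The other 4 have no symbol and are not named. Of those given, *myl4*, *gch2* and ENSAMXG00000006950 passed the filter only because of 7 dpi libraries where they were high. Their departures are thus no independent support for a difference particular to that stage. ENSAMXG00000033876 passed the filter only through cave libraries, the form where it was high, so its departure is no independent support either. The limit on pooled spread given for *myl4* also holds for *gch2*, *SNORD15* and ENSAMXG00000033876. Groups of 2 or 3 libraries were not tested for single outlying libraries.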

How the results depend on the processing

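Counts of called genes moved with the processing. The 770 genes called at 7 dpi became 318 with a filter at a mean of 5 TPM, 500 without scaling (257 higher, 243 lower) and 215 when only the 7 dpi groups entered the model, and ran from 251 (without cave 7 dpi replicate 1) to 880 when each library was left out. The 8 genes departing from the control difference became 2 at a pseudocount of 0.1, 29 without a filter, 1 at a mean of 5 TPM and 14 with only the groups compared, and 3 to 16 with a library left out, with 3 without either cave 7 dpi library, 4 without surface 7 dpi replicate 1, 16 without surface 7 dpi replicate 2 and 13 without either cave 14 dpi library. The 10 departing from the other stages became 0 at a pseudocount of 0.1 (limma; 804 unadjusted), 29 without a filter and 1 at a mean of 5 TPM, and 2 to 18 with a library left out, with 2 without either cave 7 dpi library, 18 without surface 7 dpi replicate 2 or surface 14 dpi replicate 2 and 16 without cave 14 dpi replicate 2. The 1475 calls in controls became 762 at a mean of 5 TPM, 948 without scaling (689 higher, 259 lower, against 773 and 702) and 592 with only the groups compared, and 895 (without cave control replicate 1) to 1548 with a library left out. Causes were not tested; smaller models and higher filters test fewer libraries and genes.

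The labels share replicate numbers between forms but give no source for a pairing, and same-numbered libraries at 7 dpi did not deviate together (r = -0.0782). With a replicate block 759 genes were called, 688 of them among the 770; the contrasts of differences gave 6 and 9 and controls 1432.

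Of the 54 named genes called, 47 stayed called at a pseudocount of 0.1, 45 without a filter, 41 without scaling, 52 after quantile normalization, 22 with only the groups compared and 49 with the block. With a 7 dpi library left out, 35 and 25 of the 52 still tested (surface replicates 1 and 2) and 20 and 26 of 54 (cave replicates 1 and 2) stayed called. None of these reversed in the settings run, which is no result about them. The forms did not overlap at 7 dpi in any called gene, so leaving out 1 library could hardly reverse a sign. Sign changes fell on genes that were not called, when 1 of the 7 dpi libraries was left out: *top2a* ran from -1.20 to 0.60, *mpx* from -0.74 to 0.0859, *pcna* from -1.21 to 0.32, *mmp9* from -0.13 to 1.23, *col1a2* from -0.20 to 0.53, *arntl1b* from -0.67 to 0.11, *ckma* from -0.0367 to 0.19, and *il1b* from -0.41 to 0.63 (ENSAMXG00000031873, also -0.29) and from -0.38 to 0.51 (ENSAMXG00000035729). Genes under a mean of 5 TPM have no value under that filter. Depth is unknown, and 2 libraries per form limit what could be detected.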
